A study of Rattus norvegicus with 15 samples.

Results

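Haemoglobin messages in brain tissue were followed through 3 rows of a gene count table. Of these, 1 was assigned to Hbb (ENSRNOG00000058105), which encodes a beta chain, and 2 were assigned to alpha-globin genes. Their origin in blood cells that come with the tissue was assumed and not tested. The alpha rows are called the first alpha row (ENSRNOG00000047321) and the second alpha row (ENSRNOG00000029886). The 3 rows were listed by identifier out of 22050 rows, with earlier results of these data known. The table holds identifiers alone and the annotation table used here pairs none of its 47357 genes with an Ensembl identifier, so the assigned names were not checked. Which of the rat alpha-globin genes each alpha row stands for was not determined.

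Each homogenate was made from 5 whole brains of rats of the Sprague Dawley strain, taken on postnatal day 5. Vehicle footprints (5 libraries) are ribosome-protected fragments from the dense pellet of a sucrose gradient, the fraction that holds RNA granules and tightly packed ribosomes. Cycloheximide footprints (3 libraries) came from tissue homogenised with 100 ug/ml of this elongation inhibitor. Salt footprints (2 libraries) came from pellet held in 400 mM NaCl and brought back to 150 mM, the concentration of the buffer used for all groups, before RNase I digestion. Homogenate RNA (5 libraries) was sequenced from the unfractionated, untreated homogenate. All groups share the strain, the age and the pooling of brains. Whether the vessels were rinsed of blood is not given in the sources used here. Nothing in the labels says which libraries came from separate homogenates, so p-values measure the spread between libraries, which may be technical.

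Haemoglobin is a tetramer of alpha and beta chains, each holding a haem group that binds oxygen. Its messages are made in maturing red cells, persist in reticulocytes after the nucleus is lost, and are short, stable and heavily translated on polysomes of few ribosomes. Neuronal RNA granules, by contrast, are known as large assemblies of stalled ribosomes on messages bound for dendrites and axons. In bulk tissue, fewer blood cells and less globin RNA per cell cannot be told apart.

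The 100 bases upstream of the transcription start are printed for Hbb and 2 of the alpha-globin genes to show how alike the promoters of gene copies can be. The sequences are from RefSeq, build GRCr8, which differs from the Rnor_6.0 build named for the count table. Capitals mark the motif CCAAT, the box known by its letters CACCC, and the run ATAAA, each searched on both strands. Hbb lies on the minus strand at chr1:167663722-167663821, Hba-a1 on the minus strand at chr10:15842581-15842680 and Hba-a2 on the minus strand at chr10:15829139-15829238.
Hbb: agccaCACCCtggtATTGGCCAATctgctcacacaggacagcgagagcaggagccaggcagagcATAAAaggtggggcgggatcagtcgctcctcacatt
Hba-a1: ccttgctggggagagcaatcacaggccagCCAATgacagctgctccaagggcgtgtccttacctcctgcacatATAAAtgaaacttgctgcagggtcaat
Hba-a2: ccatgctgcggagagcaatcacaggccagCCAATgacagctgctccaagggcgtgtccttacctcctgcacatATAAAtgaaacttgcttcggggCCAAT

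The windows of Hba-a1 and Hba-a2 were identical at 95 of 100 positions, compared without gaps. A further alpha-globin gene, Hba-a3, matched Hba-a1 at 25 and Hba-a2 at 26 of 100 positions when compared in the same way. With the Hba-a3 window moved by 2 bases, the matches were 80 and 81 of 98 positions. Hbb matched Hba-a1 at 19 positions and Hba-a2 at 20. All 3 printed windows held CCAAT and ATAAA, and Hba-a2 held CCAAT again at the end of its window, next to the start. The Hbb window was the only one of these 3 with CACCC. Hbb held CCAAT on each strand at adjoining positions without overlap. Among 33469 rat windows of this length, 17.1% held CCAAT on either strand. For CACCC the share was 25.6%, and for the ATAAA run it was 18.4%. A match describes the letters and does not show a bound site. The windows lie outside the transcripts and hold none of the counted reads. How the counting program treated reads that match several genes is not given in the sources used here, so the division of reads between the alpha rows is uncertain. Whether such reads were left out is not known either, for any of the 3 globin rows. An effect on the footprint to RNA ratios was not tested.

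Empty cells in 6 rows of the table separate 2 sets of libraries. Set A holds vehicle libraries 1 to 3, cycloheximide libraries 1 to 3 and RNA libraries 1 to 3, with 19223750 to 53645452 counts each. Set B holds vehicle libraries 4 and 5, both salt libraries and RNA libraries 4 and 5, with 941546 to 2808669 counts each. Levels are given as CPM, a row's counts over the library's total, times 1000000, and the fits carry a term for the set. RNA counts were mostly even numbers (88.4% to 97.7% of nonzero values, against 48.6% to 50.1% in footprint libraries). Marker genes of blood, vascular and neural cells were not analysed here, since the rows carry no names.

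Globin messages were low in the pellet footprints relative to the homogenate. In the fits, which used TMM scaling and not CPM, all 3 rows fell in vehicle footprints against homogenate RNA. The fall ran from 2.85-fold for Hbb to 6.83-fold for the first alpha row, with the second alpha row at 3.32-fold. A fall was common in this comparison, being called in 2581 of 14347 genes tested (18%), and 2307 genes rose. Every RNA library lay above every one of the 10 footprint libraries in each of the 3 rows, which held for 16.6% of the genes tested. This ratio sets the footprints of 1 fraction against the RNA of the whole homogenate. It therefore joins how much of a message pelleted with how many ribosomes it carried, and is not a translational efficiency.

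Hbb stood at 147, 246, 303, 199.5 and 243 CPM in vehicle footprint libraries 1 to 5. In RNA libraries 1 to 5 it stood at 1607, 1304, 699, 612 and 610 CPM. The groups did not overlap, and the lowest RNA library was 2.01-fold above the highest vehicle library in CPM. With the TMM scaling of the fits the gap was narrower, at 545 in RNA library 5 against 338 in vehicle library 3. Vehicle footprints averaged 228 ± 58.2 CPM (SD, n = 5). Homogenate RNA averaged 966 ± 461 CPM (SD, n = 5). The log2 ratio of footprints to RNA was -1.51 (SE 0.26, edgeR adjusted p = 0.000692). By count, Hbb ranked between 22 and 172 among all genes of the RNA libraries. In the 10 footprint libraries its rank lay between 559 and 1515.

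The first alpha row had 32.0, 37.2, 45.5, 38.5 and 40.9 CPM in vehicle footprint libraries 1 to 5. Its RNA libraries 1 to 5 had 512, 351, 179, 420 and 433 CPM. Footprint libraries lay close together, while RNA library 3 was well below the other 4 RNA libraries and still 3.94-fold above the highest vehicle library. With TMM scaling, RNA library 3 stood at 150 and vehicle library 3 at 50.8. The means were 38.8 ± 4.99 CPM (SD, n = 5) and 379 ± 126 CPM (SD, n = 5), and the log2 ratio was -2.77 (SE 0.27, edgeR adjusted p = 1.11e-05). This was the lowest ratio of the 3 rows.

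The second alpha row had 70.9, 100.4, 118.5, 64.9 and 69.1 CPM in vehicle footprint libraries 1 to 5. In RNA libraries 1 to 5 it had 439, 347, 176, 542 and 572 CPM. RNA library 3 was again the lowest and came within 1.49-fold of vehicle library 3 in CPM, the nearest approach of the groups in any row. With TMM scaling these libraries were closer, at 147 and 132, and cycloheximide library 2 stood at 135. The means were 84.8 ± 23.5 CPM (SD, n = 5) and 415 ± 160 CPM (SD, n = 5). Its footprint to RNA ratio was -1.73 on the log2 scale (SE 0.34, edgeR adjusted p = 0.00144). With both alpha rows added into 1 row, a form that does not depend on how reads were divided between them, the log2 ratio was -2.15 (SE 0.30). Reads left out of both rows would be missing from this form too.

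**Figure D1:**
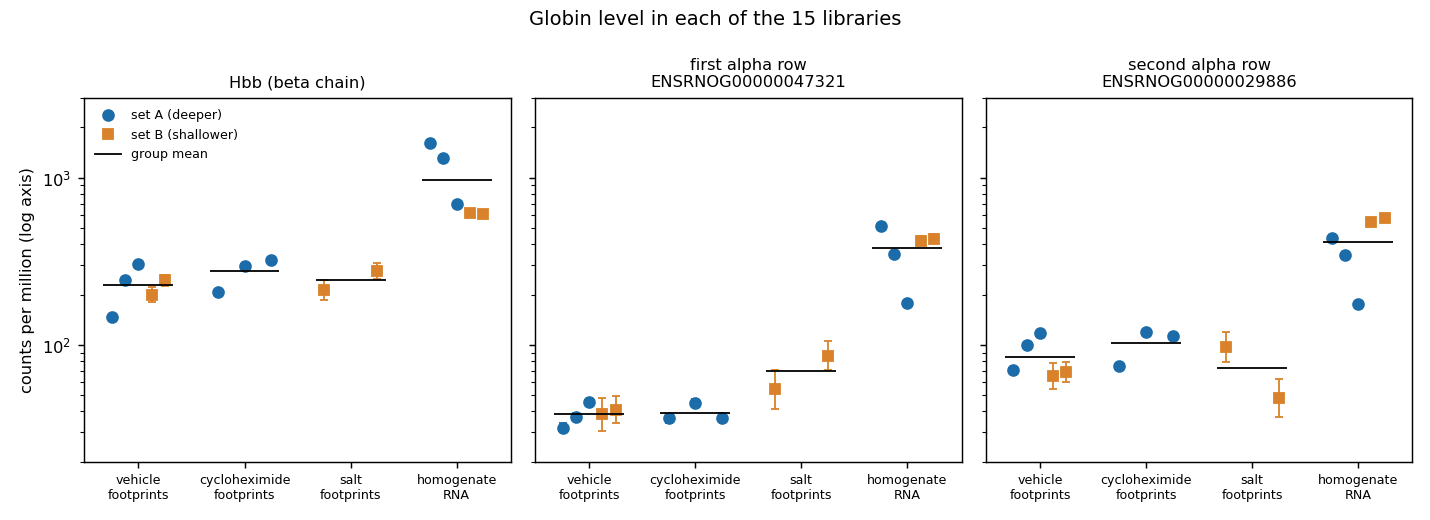
CPM of each globin row on a log axis in all 15 libraries, by group, with set A as circles, set B as squares, bars for the 95% Wilson interval of counting error and a line at the group mean. In each panel the RNA libraries sit above all footprint libraries, and for Hbb the lowest RNA library (610 CPM) lies above the highest footprint library (321 CPM).

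RNA libraries lay above the vehicle footprint libraries without overlap in 23% of the genes tested, so the direction of the globins was shared with many genes. Their place among the ratios was therefore also measured. The ratio of the first alpha row exceeded that of 4.34% of all genes tested, that of the second alpha row 9.91% and that of Hbb 12.4%. Against the 2562 genes with at least 100 CPM in homogenate RNA on average, a class in which the median log2 ratio was 0.39, these shares were 1.29%, 3.63% and 4.80%. The places differed between the sets. Fitted within set A, the shares of all genes tested were 7.99%, 23.4% and 13.7% in the same order. Within set B they were 3.50%, 4.25% and 16.2%. Against genes with at least 100 CPM they were 1.52%, 8.74% and 4.10% in set A. In set B they were 1.72%, 1.87% and 8.07%.

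Direction depends on the scaling for genes near the middle but not for the globins. The median log2 ratio of all genes tested was -0.09 with TMM scaling and -0.60 with total counts only, a shift that turned the calls into 791 higher and 4951 lower. Under total counts the ratios were -2.02 for Hbb, -3.28 for the first alpha row and -2.25 for the second, each further below zero than with TMM.

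Within set A, where 29.3% of 15335 genes were called lower, all 3 globin rows were called lower with edgeR. The log2 ratio was -1.79 (SE 0.35, edgeR adjusted p = 0.00259) for Hbb, -2.60 (SE 0.34, edgeR adjusted p = 0.000405) for the first alpha row and -1.15 (SE 0.32, edgeR adjusted p = 0.0151) for the second. Within set B, where 2.18% of 11642 genes were called lower, all 3 were called lower too. There the values were -1.21 (SE 0.23, edgeR adjusted p = 0.0259), -3.17 (SE 0.25, edgeR adjusted p = 0.000274) and -2.80 (SE 0.24, edgeR adjusted p = 0.000392) in the same order. The first alpha row was the lowest in both sets, whereas Hbb and the second alpha row changed places.

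**Figure D2:**
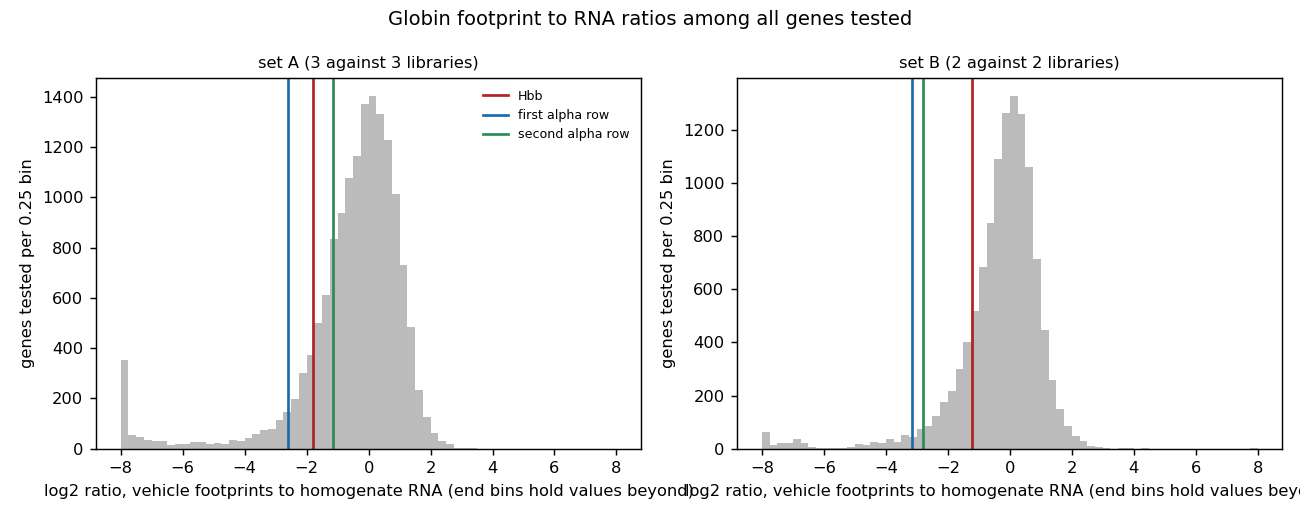
Number of genes tested by log2 ratio of vehicle footprints to homogenate RNA (edgeR with TMM) in bins of 0.25, separately for set A and set B, with vertical lines at the 3 globin rows. In set A the second alpha row lies at -1.15 and Hbb at -1.79, and in set B the second alpha row lies at -2.80 and Hbb at -1.21.

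A term for the set's effect on the footprint to RNA ratio was tested row by row and was called in 2.97% of the genes. It compares a row with itself between the sets, so the exchange of places between rows was not tested. None of the 3 globin rows was called. The set B ratio minus the set A ratio was -1.70 (SE 0.47, edgeR adjusted p = 0.0652) for the second alpha row, -0.61 (SE 0.48, edgeR adjusted p = 0.472) for the first and 0.53 (SE 0.49, edgeR adjusted p = 0.542) for Hbb.

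The ratio also varied between same-numbered libraries of set A, here taken from CPM without the TMM scaling of the fits. Hbb was 10.9, 5.31 and 2.303-fold lower in vehicle footprint libraries 1, 2 and 3 than in RNA libraries 1, 2 and 3. It was 3.07 and 2.51-fold lower for numbers 4 and 5. For the first alpha row the differences were 16.0, 9.45, 3.94, 10.9 and 10.6-fold, and for the second alpha row 6.19, 3.46, 1.49, 8.34 and 8.28-fold. All 5 numbers gave lower footprints in each row, with number 3 the smallest difference in each. The numbers share a title only and were not found to pair these libraries.

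Taken as a sum, the 3 globin rows made up 0.256%, 0.200%, 0.105%, 0.157% and 0.161% of the counts in RNA libraries 1 to 5. In vehicle footprint libraries 1 to 5 they made up 0.0250%, 0.0383%, 0.0467%, 0.0303% and 0.0353%. RNA library 1 thus carried the highest globin share of the RNA libraries and vehicle library 1 the lowest of the footprint libraries.

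The balance of alpha to beta counts was then compared between libraries. Counts were not divided by transcript length, so the ratio serves to compare libraries and not genes. Counts of both alpha rows divided by Hbb counts gave 0.592, 0.535 and 0.508 in RNA libraries 1 to 3, but 1.57 and 1.65 in RNA libraries 4 and 5. The 95% Wilson intervals of the last 2 libraries, 1.47 to 1.67 and 1.54 to 1.76, cover counting error only and lie far from the set A values. They take each count as independent, which the mostly even RNA counts put in doubt, so RNA intervals may be too narrow. In vehicle footprints the ratio was 0.698, 0.560 and 0.541 in set A and 0.519 and 0.453 in set B. The footprint libraries of set B thus did not share the high ratio of the RNA libraries of set B. Cycloheximide libraries had 0.534, 0.551 and 0.467, and salt libraries 0.710 and 0.486, all within or close to the range of the vehicle libraries.

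The levels behind that ratio were compared between the RNA libraries of the sets. Hbb had 1204 ± 463 CPM (SD, n = 3) in RNA of set A and 611 ± 1.25 CPM (SD, n = 2) in RNA of set B, a log2 difference of -0.78 (SE 0.29, edgeR adjusted p = 0.140). The second alpha row had 321 ± 133 CPM (SD, n = 3) and 557 ± 21.3 CPM (SD, n = 2), a log2 difference of 1.00 (SE 0.31, edgeR adjusted p = 0.0910). The first alpha row had 348 ± 167 CPM (SD, n = 3) and 426 ± 8.92 CPM (SD, n = 2), a log2 difference of 0.50 (SE 0.35, edgeR adjusted p = 0.399). None was called, in a comparison that called 5.85% of 15930 genes. In vehicle footprints, where the sets differed in 0.128% of 14072 genes, the log2 differences were -0.10 for Hbb, 0.03 for the first alpha row and -0.56 for the second (edgeR adjusted p = 0.869, 0.961 and 0.279). Set and depth cannot be told apart here.

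The split between the alpha rows also differed between the kinds of library. The first alpha row took 53.9%, 50.3%, 50.4%, 43.7% and 43.1% of the alpha counts in RNA libraries 1 to 5. It took 31.1%, 27.0%, 27.8%, 37.2% and 37.2% in vehicle footprint libraries 1 to 5 and 32.8%, 27.4% and 24.5% in cycloheximide libraries 1 to 3. No vehicle or cycloheximide library reached the lowest RNA library. Salt library 1 had 35.9% (51 of 142 counts), with a 95% Wilson interval of 28.5% to 44.1%. Salt library 2 had 64.1% (100 of 156 counts), with an interval of 56.3% to 71.2%, the highest of all 15 libraries.

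**Figure D3:**
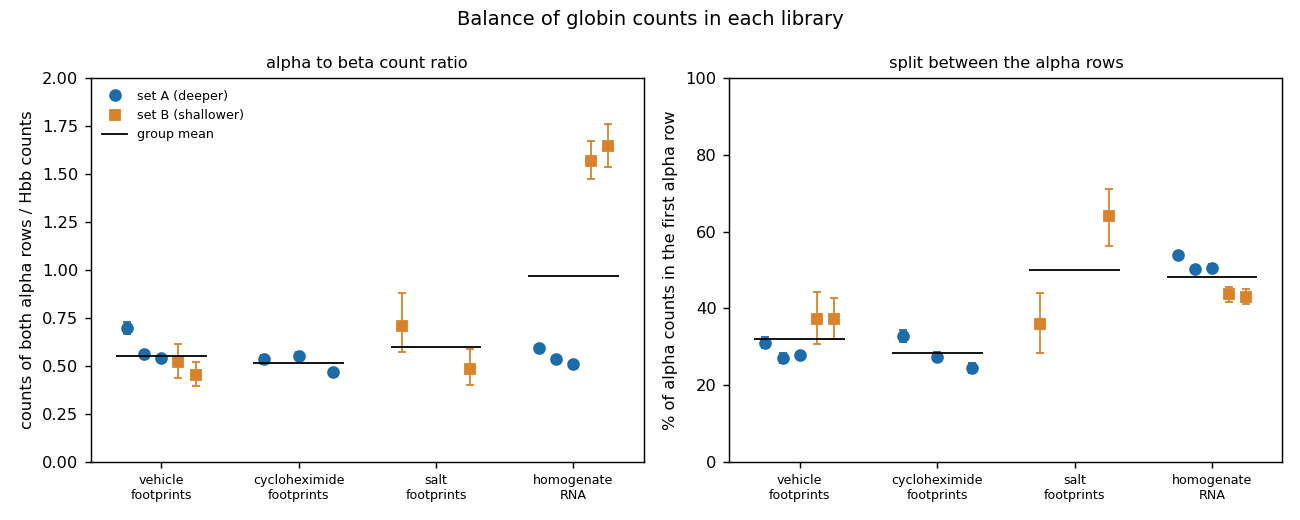
Left, counts of both alpha rows divided by Hbb counts, and right, percentage of alpha counts in the first alpha row, for each of the 15 libraries by group, with set A as circles, set B as squares, bars for the 95% Wilson interval and a line at the group mean. RNA libraries 4 and 5 stand at 1.57 and 1.65 on the left, and salt library 2 stands at 64.1% on the right.

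With cycloheximide present during homogenisation, none of the 3 globin rows was called changed. Hbb had 208, 298 and 321 CPM in cycloheximide libraries 1 to 3, overlapping the vehicle libraries. The first alpha row had 36.4, 45.0 and 36.8 CPM and the second 74.4, 119 and 113 CPM, also overlapping. In the same-numbered vehicle libraries, Hbb was lower in all 3, by 1.41, 1.21 and 1.06-fold. The alpha rows had no common direction. Cycloheximide over vehicle was 1.14, 1.21 and 0.81 for the first alpha row and 1.05, 1.19 and 0.95 for the second. How many of all genes were lower in all 3 was not counted.

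The log2 change with cycloheximide was 0.21 (SE 0.28) for Hbb, 0.01 (SE 0.22) for the first alpha row and 0.05 (SE 0.25) for the second. The edgeR adjusted p was 1.00 for each. The 95% intervals of the fold change ran from 0.747 to 1.80, from 0.715 to 1.42 and from 0.699 to 1.53. Larger shifts are outside them while smaller ones are not resolved by this fit. Of 13939 genes tested, 0% were called with edgeR, 24 had an unadjusted p under 0.05, and DESeq2 called 0. Without vehicle library 1, the Hbb change was -0.03. With a term for the title number in place of the set, the Hbb fold interval was 1.02 to 1.39. In that fit 4.56% of the genes tested had an unadjusted p under 0.05 with edgeR, and 0 were called.

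Salt treatment likewise gave no called globin change. Hbb had 212 and 277 CPM in salt libraries 1 and 2, within the range of the vehicle libraries. The first alpha row had 54.2 and 86.3 CPM, both above the highest vehicle library at 45.5 CPM. The second alpha row had 96.6 and 48.3 CPM, on either side of the vehicle libraries of set B.

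The log2 change with salt was 0.16 (SE 0.35, edgeR adjusted p = 0.965) for Hbb, 0.84 (SE 0.39, edgeR adjusted p = 0.731) for the first alpha row and 0.12 (SE 0.39, edgeR adjusted p = 0.972) for the second. The fold intervals were 0.658 to 1.90, 0.997 to 3.22 and 0.599 to 1.97. Salt above vehicle without overlap was found in 6.06% of the 11547 genes tested, so the position of the first alpha row is not rare. Of these genes 0% were called with edgeR, 788 had an unadjusted p under 0.05, and DESeq2 called 21. A count of 0 calls in either treatment does not show that no gene changed. The value of the first alpha row depended on which salt library was kept, at 0.43 without salt library 2 and 1.15 without salt library 1. For the second alpha row the sign turned, from 0.52 without salt library 2 to -0.44 without salt library 1. Added together, the alpha rows of the salt libraries came to 142 and 156 counts, which limits the precision of these values.

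**Figure D4:**
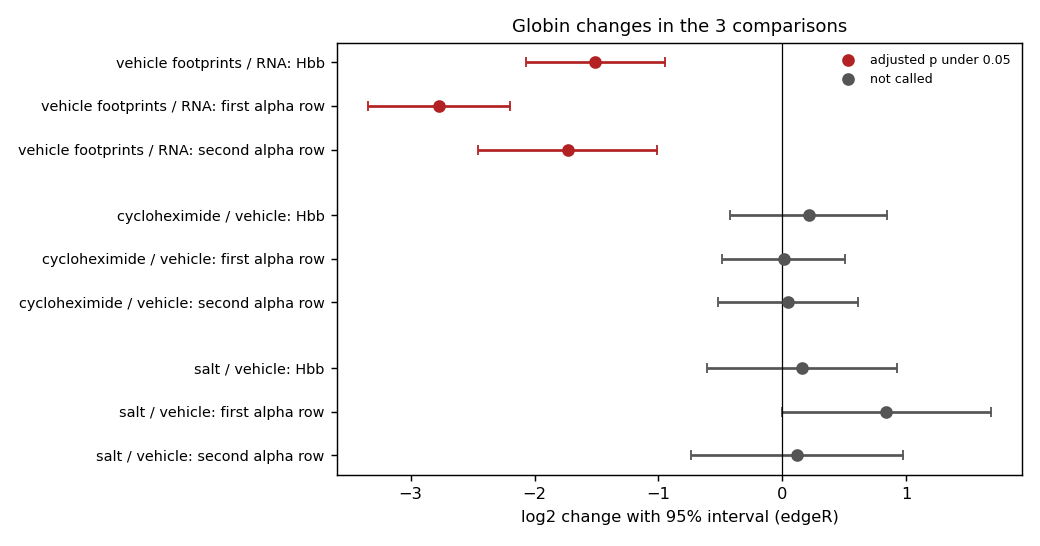
Log2 change of each globin row with its 95% interval (edgeR) in the 3 comparisons, red where the adjusted p was under 0.05 and grey where it was not. The footprint to RNA ratios lie between -2.77 and -1.51, while the cycloheximide and salt changes lie between 0.01 and 0.84 with intervals that include zero.

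Across the 15 libraries, no globin row had another globin row as its closest match. By Pearson correlation of log2(CPM + 1) over 9289 other genes with a mean of at least 10 CPM, the first alpha row came at place 128 for Hbb (r = 0.90) and the second at place 454 (r = 0.84). The gene most like Hbb was ENSRNOG00000048174 (r = 0.97), whose name the table does not give. After the mean of each group within each set was subtracted, the first alpha row came at place 49 (r = 0.85) and the second at place 365 (r = 0.72), with ENSRNOG00000030871 first (r = 0.94). Seen from the alpha rows, the places of the other globin rows ranged from 8 to 939. Hbb came at place 8 for the first alpha row after these means were subtracted (r = 0.85). The first alpha row came at place 28 for the second over all 15 libraries without subtraction (r = 0.90). After subtraction the alpha rows were less alike (r = 0.55). The second then came at place 606 for the first, and the first at place 939 for the second. These are descriptions over libraries that share depth and kind.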

How the data were processed

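The authors deposited raw read counts per Ensembl gene in 1 table of 15 columns, matched to samples by title. Per the submitters' processing notes, the build was Rnor_6.0 and CASAVA, cutadapt 2.8, Bowtie2 2.3.5, STAR 2.7.3a and deepTools were used, with no roles given. The counting program and annotation are not given in the sources used here. The 6 rows with empty cells were left out, leaving 22044.

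Each comparison was fitted on all genes of its own groups with edgeR 4.0.16 in R 4.3.3 (quasi-likelihood F-test, TMM, filterByExpr, robust dispersion, library set as covariate). Benjamini-Hochberg adjustment ran over all genes tested, with calls under 0.05. The SE is the absolute log2 change over the square root of F. Alternatives included DESeq2 1.42.0. The procedure was tested on simulated data. CPM uses column totals. Python 3.11.15 with scipy 1.17.1 gave Wilson intervals, which cover counting error only.

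The rows, gene lists and tests were chosen with earlier results of these data known. The rule for named genes took the 3 globin rows and the genes most like Hbb. The pathway, marker and protein length lists in that rule could not be matched without gene names and were not used. The deviations of cycloheximide libraries from their mean followed those of the vehicle libraries of the same title number (correlations 0.84, 0.46 and 0.44 over 12018 genes), although only number 1 of 3 matched its own number best. The reported fit carries the library set and no replicate block, and the blocked fit is an alternative.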

Additional observations from a re-analysis of the deposited data

How the results depend on the processing

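In the footprint to RNA comparison, all 61 alternative values of the 3 globin rows kept a negative sign and an adjusted p under 0.05. They ranged from -2.02 to -1.21 for Hbb, from -3.28 to -2.59 for the first alpha row and from -2.80 to -1.15 for the second, and halving the RNA counts gave -1.52, -2.78 and -1.74. Genes called there numbered 4888, against 7869 in set A alone and 441 in set B alone. The replicate block gave ratios of -1.51, -2.74 and -1.75 and 3520 calls. Footprint and RNA libraries of the same number share only that number (correlations of deviations -0.08 to 0.24, highest with the own number in 1 of 5). For salt and vehicle libraries the correlation was 0.12 for both numbers. With 2 libraries on each side the deviations mirror each other, so this value cannot show whether the numbers pair them. In the salt comparison 0 genes were called, 482 with the replicate block and 21 with DESeq2. The block joins salt libraries of set B to vehicle libraries of set A. It gave -0.25 for the second alpha row, as against -0.21 with no set term. For cycloheximide, where same-numbered libraries deviated together, the block called 0 genes and gave 0.25 for Hbb (SE 0.10, edgeR adjusted p = 1.00).

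Signs of the uncalled treatment changes turned in 15 cases. For the first alpha row with cycloheximide these were -5.26e-05 with no set term, -2.45e-05 with RLE scaling and -0.000322 with DESeq2. Leaving out 1 library gave -0.11 to 0.15 for the first alpha row, -0.032 to 0.45 for Hbb and -0.14 to 0.26 for the second. With salt the ranges were -0.074 to 0.37 for Hbb and -0.44 to 0.52 for the second alpha row. Without 1 salt library the lone library is assumed to vary like the vehicle libraries. Causes were not tested. The sum over all annotated globin rows was not run, for want of gene names, nor was the comparison by protein length. Floors of 3 counts were 0.0559 to 3.19 CPM, below every globin value.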
